A study of Mus musculus with 8 samples.

Results

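The effect of deleting Ezh2 was read in LSK cells, marrow cells without lineage markers that carry both Sca-1 and c-Kit and include the blood stem cells and multipotent progenitors. It rests on the 4 LSK arrays of 8 arrays in all, joined into 2 matched pairs by their titles. The first pair sets Ezh2-deleted LSK over WT LSK and is called the wild-type JAK2 pair. The second sets the double mutant, which carries JAK2V617F and the deletion, over JAK2V617F LSK and is called the JAK2V617F pair. Of 20887 genes matched to a probe 20041 are autosomal, and 12985 of these were well above background on at least 1 LSK array and were compared.

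Donor marrow came from C57BL/6 mice that all carried Cre-ERT2, a Cre recombinase switched on by tamoxifen, so the WT group is Cre-ERT2 alone. The Ezh2-deleted group started as Ezh2flox/flox;Cre-ERT2, the JAK2V617F group as JAK2V617F;Cre-ERT2 and the double mutant as JAK2V617F;Ezh2flox/flox;Cre-ERT2. The marrow was placed in lethally irradiated CD45.1+ wild-type hosts, Ezh2 was deleted 4 weeks later, and LSK were sorted at 2 months. Each group is 1 array from 20 ng of RNA labelled with Cy3, and the number of mice behind an array is not given in the sources used here. Host cells may remain among the sorted cells, since a sort on the donor marker is not given in these sources either. The megakaryocyte and erythroid progenitors (MEP) of the same 4 genotypes, 1 array each, served as a second fraction.

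Ezh2 is the enzyme at the core of PRC2, a polycomb complex that methylates histone H3 and keeps lineage and developmental genes silent in cells where they are not used. Its homolog Ezh1 can form a PRC2 complex of its own, and PRC1 reads the mark and compacts the chromatin. JAK2V617F is the activated kinase of myeloproliferative neoplasms, which signals through STAT factors. In adult blood stem cells PRC2 is known for holding fetal genes silent.

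A level is the log2 signal of a gene's probe minus the 75th percentile of its array. A difference is the level on the Ezh2-deleted array minus that on the intact array of the pair, and a gene counted as raised or lowered when it was at least 2-fold (log2 1) apart. Where the dimmer array was not well above background, it entered at the higher of its own value and the dimmest signal that passed as well above background there, and the fold is given as at least that large. With 1 array a group neither pair has a replicate check of its own, and the pairs differ in the JAK2 genotype. The SD of the differences over genes above background on all 4 arrays was 0.45 in the wild-type JAK2 pair and 0.47 in the JAK2V617F pair. The median over all genes was -0.08 and -0.10.

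The 4 LSK arrays correlated at 0.967 to 0.986 with each other, and 43.3% to 48.8% of their probes were well above background. All 12 genes that mark the LSK gate, among them Kit and Ly6a (Sca-1), were above background on all 4 arrays. The Ezh2 probe read 3.50 in WT, 3.36 in Ezh2-deleted, 3.83 in JAK2V617F and 3.59 in the double mutant. The files do not give the exon under this probe, and its level is therefore no check of the deletion. Jak2 read 2.72, 2.59, 2.34 and 2.21 in that order. Xist, the RNA of the inactive X chromosome, read -3.07 in WT, 2.07 in Ezh2-deleted and 1.57 in double mutant LSK and was not well above background in JAK2V617F. Eif2s3y of the Y chromosome read 2.53 in WT and 2.97 in JAK2V617F and was below background in the other two. The sex of the cells and the loss of Ezh2 cannot be told apart in either pair, and only autosomal genes are counted below.

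Ezh2 deletion went with more raised than lowered genes on both JAK2 backgrounds. Raised genes numbered 528 (4.07%) in the wild-type JAK2 pair and 553 (4.26%) in the JAK2V617F pair, and lowered genes 221 (1.7%) and 203 (1.56%). Raised in both pairs were 194 genes (1.49%), which is 36.7% of the first set and 35.1% of the second. Lowered in both were 28 genes (0.216%), or 12.7% and 13.8% of the lowered sets. Genes raised on the wild-type JAK2 background only numbered 334 (2.57%), and those raised on the JAK2V617F background only 359 (2.76%). Lowered on 1 background only were 193 (1.49%) and 175 (1.35%). Just inside the threshold for both pairs lay Klrd1 (lower bounds of 1.15 and 1.01) and Fosl2 (1.01 and 1.34). A second Fosl2 probe gave 1.18 and -0.4. Just outside lay Pde3b (1.21 and 0.999) and Fas (0.993 and 1.27). With background correction by normexp, which here added an offset of 50 to each signal, 62 genes were raised and 7 lowered in both pairs. In sorted bulk cells, fewer cells of a type and less RNA per cell cannot be told apart.

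**Figure D1:**
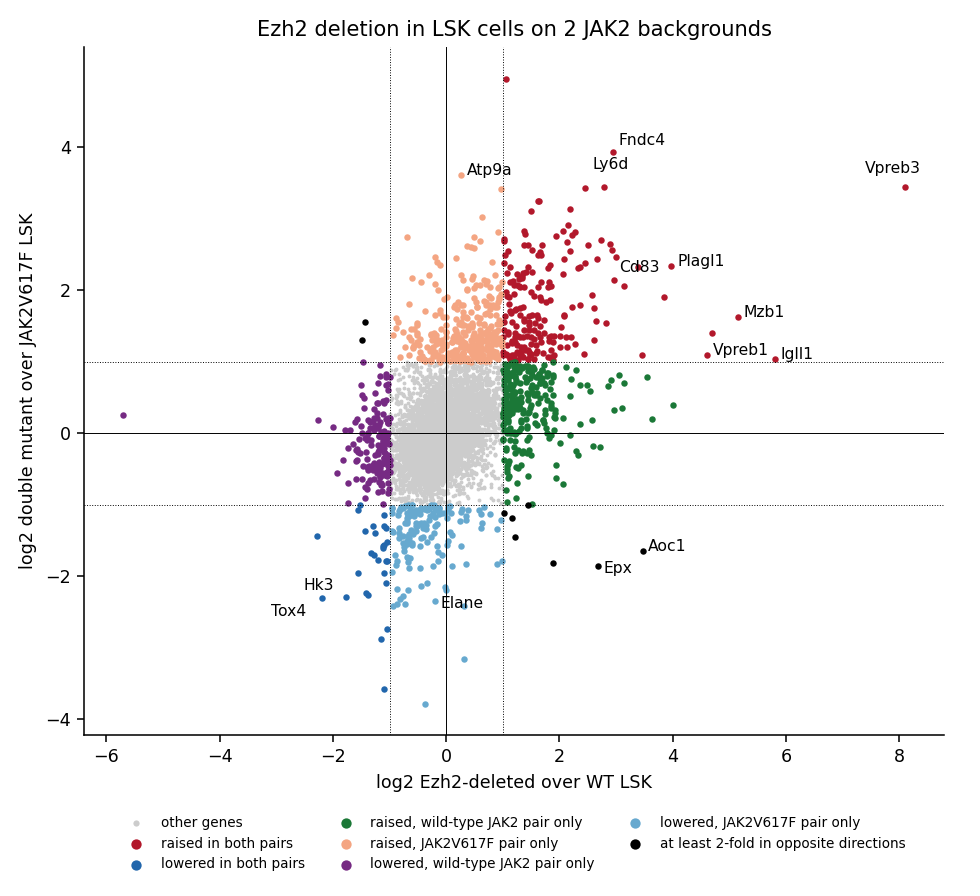
Each point is an autosomal gene with a value in both LSK pairs. The horizontal axis is the log2 difference of Ezh2-deleted over WT, the vertical axis that of the double mutant over JAK2V617F, and the dotted lines mark 2-fold (log2 1). The 194 genes raised in both pairs fill the upper right, with Vpreb3 at 8.10 and 3.44, and 9 genes (black) passed 2-fold in opposite directions.

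The genes raised in both pairs had median differences of 1.51 and 1.64. All 4 LSK arrays were above background for 112 of the 194, and 25 were above background on the Ezh2-deleted arrays alone. The difference was a lower bound in at least 1 pair for 82. At their head stood genes of the B lineage and of early lymphoid progenitors, beside genes better known from other tissues. The promoters of 4 of the first 5 follow, from RefSeq on GRCm38.p6, each 250 bases before to 50 bases after the gene start and written 5′ to 3′ on the strand of the gene. They come from the head of the ranking by the smaller pair difference, and they range widely in CG, the feature tied to polycomb binding. In Vpreb3 and Blnk the capitals mark the octamer ATTTGCAT, the site known for POU factors at B-lineage promoters. In Fndc4 and Rab15 they mark each CG.
Vpreb3 (chr10:75948050-75948349, plus strand): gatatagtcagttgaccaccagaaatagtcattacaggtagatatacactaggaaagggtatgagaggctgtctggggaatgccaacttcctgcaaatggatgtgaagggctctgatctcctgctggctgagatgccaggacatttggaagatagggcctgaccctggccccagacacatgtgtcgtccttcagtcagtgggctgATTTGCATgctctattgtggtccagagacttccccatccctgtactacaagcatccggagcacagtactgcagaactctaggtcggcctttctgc
Blnk (chr19:40994172-40994471, minus strand): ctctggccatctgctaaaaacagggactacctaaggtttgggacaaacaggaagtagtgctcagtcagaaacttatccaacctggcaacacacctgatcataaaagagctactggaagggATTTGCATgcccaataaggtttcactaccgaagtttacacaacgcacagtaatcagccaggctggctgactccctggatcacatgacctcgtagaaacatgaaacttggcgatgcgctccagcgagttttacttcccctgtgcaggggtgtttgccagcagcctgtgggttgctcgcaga
Fndc4 (chr5:31295883-31296182, minus strand): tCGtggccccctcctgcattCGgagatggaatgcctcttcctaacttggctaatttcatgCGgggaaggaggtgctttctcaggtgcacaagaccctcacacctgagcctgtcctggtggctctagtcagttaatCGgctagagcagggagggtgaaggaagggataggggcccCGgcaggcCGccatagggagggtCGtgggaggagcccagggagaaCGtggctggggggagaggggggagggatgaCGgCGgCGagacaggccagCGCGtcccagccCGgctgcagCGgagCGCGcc
Rab15 (chr12:76822475-76822774, minus strand): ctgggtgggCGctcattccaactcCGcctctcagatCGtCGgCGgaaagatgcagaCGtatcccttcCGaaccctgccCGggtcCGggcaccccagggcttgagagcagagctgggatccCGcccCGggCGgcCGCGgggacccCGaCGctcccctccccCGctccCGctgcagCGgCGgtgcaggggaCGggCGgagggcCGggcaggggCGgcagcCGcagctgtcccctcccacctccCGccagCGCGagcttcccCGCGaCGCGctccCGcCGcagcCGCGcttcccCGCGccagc

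Vpreb3 and Blnk held 3 and 7 CG in these 300 bases, Fndc4 held 17 and Rab15 held 38. A promoter was called CG-rich with a GC content of at least 50% and an observed over expected CG ratio of at least 0.6. The ratio was 0.154 for Vpreb3, 0.374 for Blnk, 0.561 for Fndc4 and 0.882 for Rab15, so by this rule Rab15 was CG-rich and Fndc4 lay just below. Of the 147 genes raised in both pairs that have a promoter in the table, 81 (55.1%) were CG-rich, against 6699 of 10374 measured genes (64.6%). Among measured genes below background on at least 1 Ezh2-intact LSK array the share was 40.6%, and among those of them raised in both pairs it was 34 of 68. Genes lowered in both pairs were CG-rich in 5 of 21 cases (23.8%). The raised genes were thus not richer in CG than the measured genes at large, and the lowered ones had the smallest share of the classes compared.

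The octamer, searched as ATTTGCAT on both strands with no match in the table overlapping the STAT motif below, lay in 5 of the 147 promoters raised in both pairs (3.4%), in 1.37% of those of all measured genes and in 1.75% of all 27025 promoters of the table. These 5 were Vpreb3, Blnk, Asb4, Nrarp and Abtb2. It lay in 2 of 254 promoters (0.787%) raised on the wild-type JAK2 background only and in 3 of 276 (1.09%) raised on the JAK2V617F background only. The motif was chosen after the sequences above had been read. TTCNNNGAA, the core of a STAT site, lay in 5.44% of the promoters raised in both pairs, in 7.14% of those of all measured genes and in 8.47% of all promoters. Its share was 14.5% (22 of 152) for genes lowered on the wild-type JAK2 background only, the highest of the classes. It was 8.87% for genes lowered on the JAK2V617F background only and 4.76% for those lowered in both pairs. Genes raised on the wild-type JAK2 or the JAK2V617F background only had 6.3% and 8.33%. A match describes the letters in this window and is no evidence of binding.

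Vpreb3, which binds the pre-B cell receptor chains, was not well above background in WT (-4.26) or JAK2V617F LSK (-5.01) and reached 4.10 in Ezh2-deleted and 0.08 in double mutant LSK. The difference was at least 275-fold in the wild-type JAK2 pair and at least 10.8-fold in the JAK2V617F pair. Both deleted arrays lay far above both intact ones, and the Ezh2-deleted array lay above the double mutant. Blnk, the adapter that carries B cell receptor signals, read 1.24 in WT, 3.97 in Ezh2-deleted, -0.87 in JAK2V617F and 1.83 in the double mutant. That is 6.65-fold and 6.49-fold, close to equal in the pairs, with both members of the JAK2V617F pair below their counterparts. Ly6d, which marks lymphoid progenitors turned to the B lineage, read -0.90, 1.88, -1.38 and 2.06 in the same order, 6.89-fold and 10.9-fold apart. For Ly6d the deleted arrays lay side by side and well above the intact ones.

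Other members of the early lymphoid programme were raised in both pairs with unequal sizes. Il7r, the receptor of the lymphoid growth factor IL-7, read -2.66 in WT, -0.48 in Ezh2-deleted and -0.80 in double mutant LSK and was not well above background in JAK2V617F, 4.53-fold and at least 5.87-fold apart. Dntt, which adds bases at antigen receptor joints, read 7.32, 8.34, 5.43 and 7.81, 2.03-fold and 5.20-fold apart. JAK2V617F LSK had the lowest Dntt of the 4 arrays and the double mutant lay above WT. Vpreb1, a surrogate light chain, read 0.10, 4.72, 0.35 and 1.45, which is 24.5-fold against 2.15-fold. Igll1, the other surrogate light chain gene, was above background on the deleted arrays alone, at 1.80 and -2.31, at least 55.6-fold and at least 2.06-fold. Mzb1, an endoplasmic reticulum protein of B cells, behaved alike, at least 35.6-fold and at least 3.08-fold. For these 3 genes the Ezh2-deleted array lay well above the double mutant. Ccr9, a homing receptor of thymus-seeding progenitors, was also above background on the deleted arrays alone, at -0.66 and -1.29, at least 8.86-fold and at least 4.18-fold.

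Of 25 lymphoid priming genes measured, 7 were raised in both pairs (1.49% of all genes), namely Dntt, Il7r, Ccr9, Igll1, Vpreb1, Blnk and Mzb1. In the wild-type JAK2 pair 9 were raised (4.07%), in the JAK2V617F pair 9 (4.26%), and 0 were lowered. The list medians were 0.38 and 0.55, against -0.08 and -0.10 for all genes. Flt3, Ikzf1 and Tcf3, the receptor and transcription factors that prime the lineage, differed by 0.01, -0.01 and -0.16 in the wild-type JAK2 pair and by 0.16, 0.09 and -0.22 in the JAK2V617F pair. Rag1, the antigen receptor recombinase, was above background on the Ezh2-deleted array alone (-1.44, at least 5.88-fold over WT). The genes raised in both pairs thus included those of the pre-B cell receptor, while the 3 regulators named lay near 0.

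Of 9 B cell markers measured, 5 were raised in the wild-type JAK2 pair (4.07% of all genes) and Vpreb3 alone in the JAK2V617F pair (4.26%). The medians were 2.25 over 9 genes and 0.06 over the 5 with a value in the JAK2V617F pair, so they are not over the same genes. Pou2af1, the coactivator that POU factors recruit at octamer sites, was above background on the Ezh2-deleted array alone, at 0.44, at least 21.8-fold over WT. Ebf1, the factor that specifies B cells, was at -0.65 there, at least 10.2-fold over WT. Neither was well above background in the double mutant, at -3.27 and -3.90. Spib was at least 4.74-fold over WT and above background on that array alone. Cd79a, part of the B cell receptor, was at -3.04 in Ezh2-deleted LSK and not well above background elsewhere, and Cd22 and Cd79b differed by 0.26 and 0.14 in the wild-type JAK2 pair. The summed signal of the list, in units of the 75th percentile of the array, was 27.1 in WT, 47.3 in Ezh2-deleted, 29.1 in JAK2V617F and 26.1 in the double mutant. The part of B cells in the sorted fraction in the lymphoid differences was not tested. The limma interaction of Ezh2 deletion and JAK2V617F, fitted over LSK and MEP together, called none of these genes. Its Benjamini-Hochberg adjusted p was 0.079 for Ebf1, 0.0813 for Vpreb3 and 0.117 for Pou2af1.

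**Figure D2:**
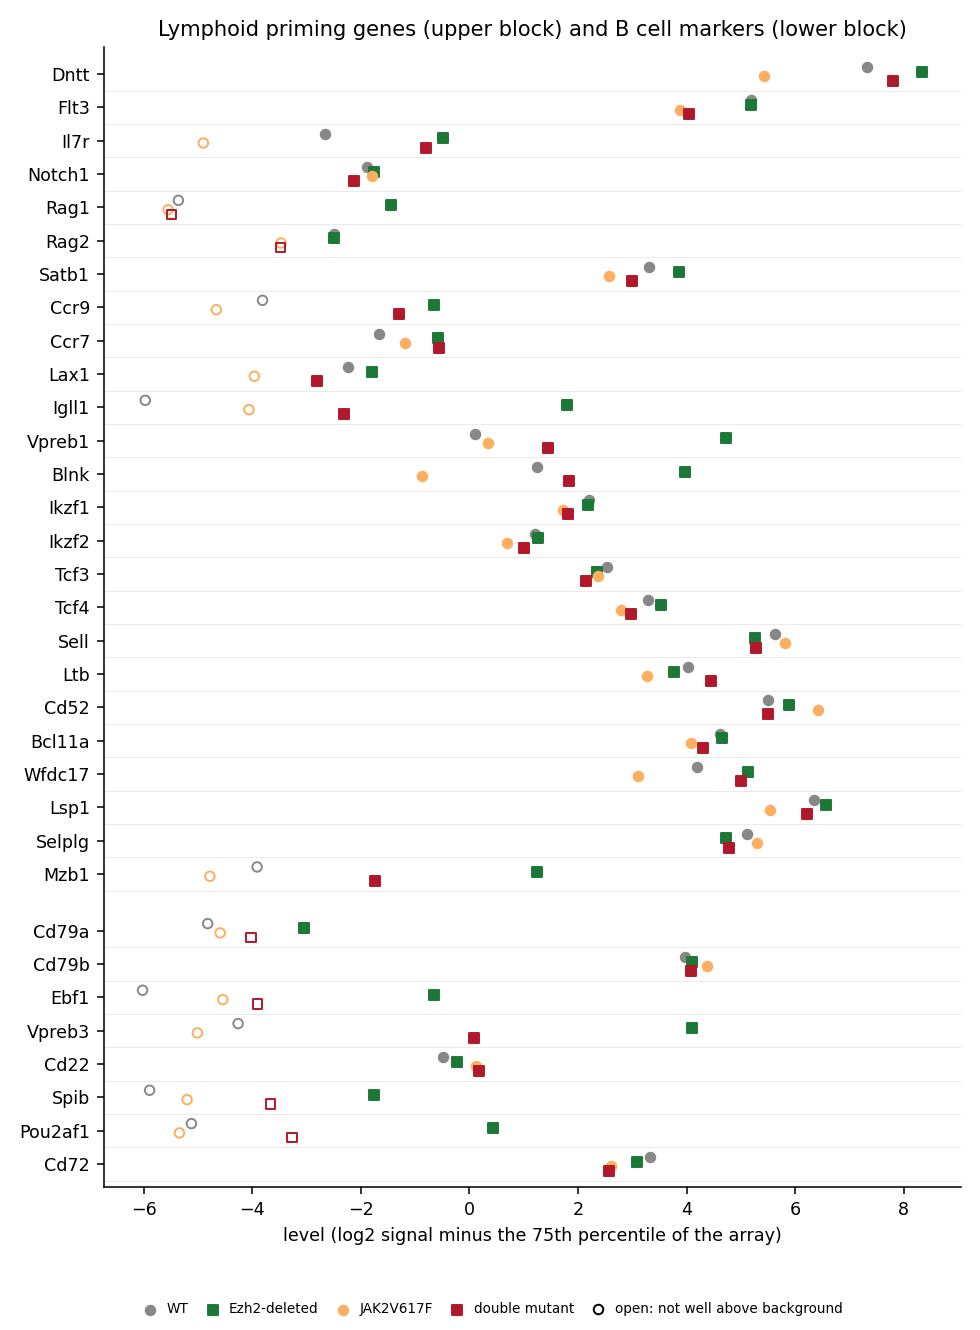
Levels of the 25 lymphoid priming genes (upper block) and 8 of the 9 B cell markers (lower block) on the 4 LSK arrays, as log2 signal minus the 75th percentile of the array, with open symbols for values not well above background. Vpreb3 and Igll1 have the widest steps from WT to Ezh2-deleted LSK (green squares), with the double mutant (red squares) next, and Pou2af1 and Ebf1 are filled in Ezh2-deleted LSK alone.

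Among the other leading genes were ligands. Wnt10b, a Wnt ligand and a known PRC2 target, read -3.29 in WT, -0.36 in Ezh2-deleted and -0.78 in double mutant LSK and was not well above background in JAK2V617F. It was 7.62-fold and at least 5.94-fold apart, and limma called it within LSK (log2 2.98, SE 0.21, adjusted p = 0.027). Tnfsf11, the ligand RANKL, read -2.29, 0.17 and 0.07 in WT, Ezh2-deleted and double mutant LSK, 5.47-fold and at least 10.8-fold apart. Areg, an EGF receptor ligand, was at -0.55 and -0.02 on the deleted arrays, at least 10.4-fold and 5.01-fold over the intact ones. For all 3 the deleted arrays lay within 1 log2 unit of each other.

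Ramp3, which modifies calcitonin-family receptors, read -0.43 in WT and 2.07 in Ezh2-deleted LSK, and -0.73 in the double mutant with JAK2V617F below background, 5.67-fold and at least 6.17-fold apart. Here WT lay above the double mutant, so the 2 groups overlapped although both pairs were raised. Ddx4, an RNA helicase of germ cells, had the same order, with -0.21 in WT, 2.45 in Ezh2-deleted and -0.74 in the double mutant, 6.31-fold and at least 5.43-fold apart. Fndc4, a secreted fibronectin-domain protein, was 7.71-fold and at least 15.3-fold apart, and Rab15, a GTPase of endosome recycling, 7.47-fold and at least 6.27-fold. Inava (7.99-fold and 5.50-fold), the fatty acid transporter Slc27a2 (5.48-fold and at least 5.21-fold), the matrix protein Fbln1 (4.54-fold and at least 8.82-fold) and Camkv (4.47-fold and at least 7.54-fold) were raised alike. The ubiquitin ligase subunit Asb4 was above background on the deleted arrays alone, at least 5.16-fold and at least 5.04-fold. A second Asb4 probe, above background on 1 LSK array, gave 0.54 and 1.48. Gzmb, a granzyme, was 5.02-fold and 4.96-fold apart and above background on all 4 arrays. The adapter Skap1 (4.83-fold and 7.05-fold) and Echdc2 (4.66-fold and 6.81-fold) were also above background on all 4, and limma called both (log2 2.54 and 2.49, SE 0.24 for each, adjusted p = 0.0499 for each).

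**Figure D3:**
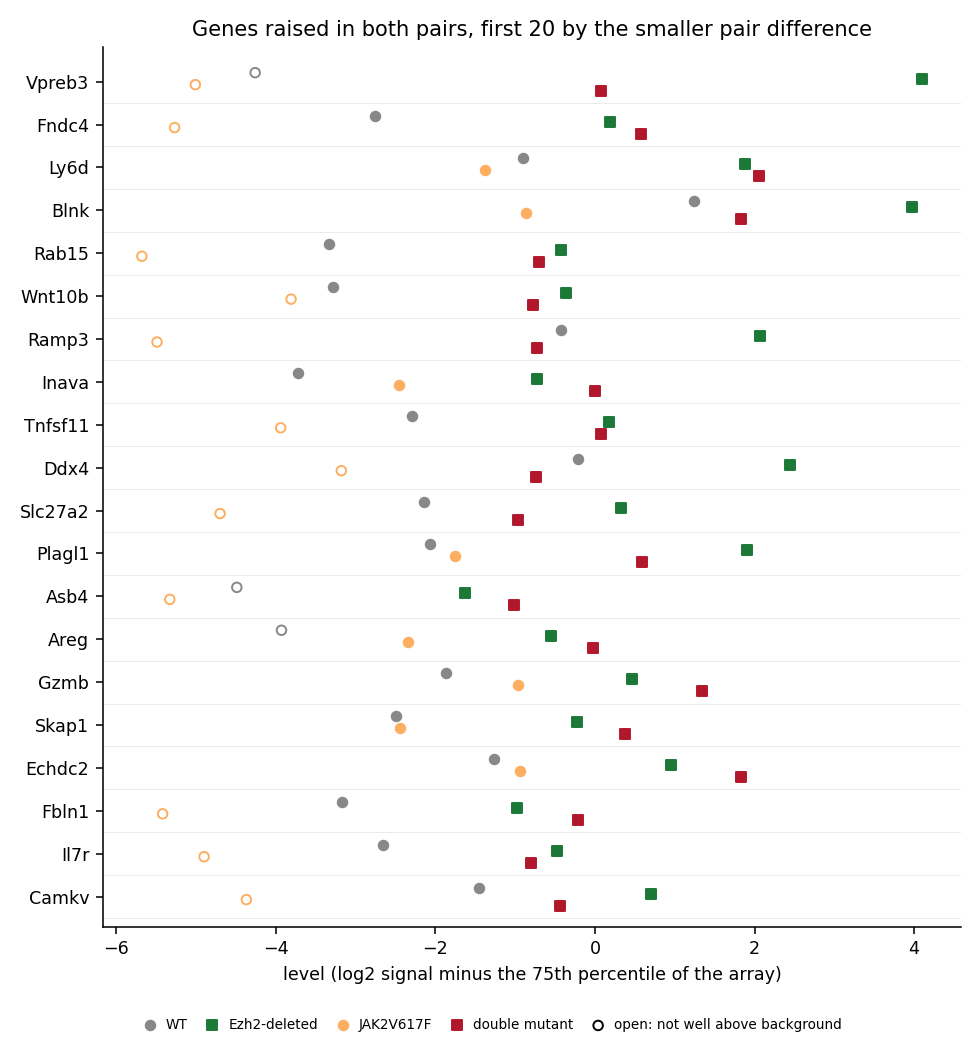
Levels of 20 genes raised in both pairs, ranked from the top by the smaller of their pair differences, as log2 signal minus the 75th percentile of the array, with circles for Ezh2-intact and squares for Ezh2-deleted LSK. Squares lie right of the circles of their own pair for each gene, while for Ramp3 and Ddx4 the WT circle lies right of the double mutant square.

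Of 22 genes of BMP and TGF-beta signalling measured, 5 were raised in both pairs (1.49% of all genes), 8 in the wild-type JAK2 pair (4.07%) and 5 in the JAK2V617F pair (4.26%), with medians of 0.67 and 0.47 and 0 lowered. Bmp4, a ligand, was 2.11-fold and at least 4.72-fold apart, and its receptor Bmpr1a was above background on the deleted arrays alone (-1.36 and -1.79), at least 6.24-fold and at least 2.97-fold. The inhibitory Smad7 read 2.54, 4.0, 1.39 and 2.52 in WT, Ezh2-deleted, JAK2V617F and double mutant LSK, 2.75-fold and 2.20-fold apart. The SMAD corepressor Skil was 2.74-fold and 2.06-fold apart, and Id2, a SMAD target that blocks basic helix-loop-helix factors, 3.30-fold and 2.63-fold. The related Id1 and Id3 read 5.59-fold and 4.94-fold in the wild-type JAK2 pair, against 1.6-fold and 1.84-fold in the other.

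Regulators known as polycomb targets were mostly not measurable. Of 55 developmental regulators on the array 17 were above background on any LSK array. Raised in both pairs were 3 (1.49% of all genes), the ligands Wnt10b, Bmp2 (3.05-fold and 2.22-fold) and Bmp4. The medians were 0.14 and 0.24. Of 39 Hox genes 16 were measured, with medians of 0.09 and -0.11. In each pair 2 were raised (4.07% and 4.26% of all genes), 1 of them in both (1.49%). Hoxb2 alone was lowered, in both pairs (2.89-fold and 2.01-fold, 0.216% of all genes). Hoxa10 was higher by 0.67 and 1.04. Hoxa9 and Hoxb4, which act in stem cell self-renewal, differed by -0.31 and -0.45 in the wild-type JAK2 pair and by -0.49 and -0.29 in the JAK2V617F pair. Silent developmental genes thus gave few values above background after the deletion.

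Most genes of the polycomb complexes lay within 2-fold. None of the 11 autosomal PRC2 genes measured, Ezh2 included, passed 2-fold in either pair, with medians of 0.06 and -0.11, and Ezh1 differed by 0.13 and -0.03. In PRC1, Bmi1 was raised in both pairs, with 2.41 in WT, 3.51 in Ezh2-deleted, 2.27 in JAK2V617F and 3.68 in the double mutant (2.14-fold and 2.66-fold). The deleted arrays lay above both intact ones, and limma gave a log2 of 1.26 (SE 0.22, adjusted p = 0.135), which missed the threshold. Cbx8, a subunit that binds the PRC2 mark, read -0.91, -2.47, -0.82 and -1.90 and was lowered in both (2.93-fold and 2.10-fold). The other 16 PRC1 genes measured passed 2-fold in neither pair, and the list medians were -0.16 and -0.04.

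Fetal and imprinted genes held a few large differences. Hmga2, a DNA-bending protein active in fetal blood, read 0.51 in WT, 2.34 in Ezh2-deleted, -0.47 in JAK2V617F and 1.88 in the double mutant, 3.56-fold and 5.10-fold apart (limma log2 2.09, SE 0.24, adjusted p = 0.0632). Plagl1, an imprinted zinc finger gene, read -2.07, 1.91, -1.76 and 0.59, 15.8-fold and 5.08-fold apart. A second Plagl1 probe gave 3.84 and 2.10, while 2 others gave 0.23 and 0.25 in the wild-type JAK2 pair and 0.01 and 0.47 in the JAK2V617F pair, so its probes disagree. Igf2r, which clears IGF2, was 2.61-fold and at least 4.15-fold apart. Of 12 imprinted genes measured 5 were raised in each pair (4.07% and 4.26% of all genes), and Plagl1 and Igf2r in both (1.49%). The medians were 0.60 and 1.63, over 12 and 9 genes with a value. Cdkn1c, a cell cycle inhibitor of quiescent stem cells, read 0.89, 0.84, 0.37 and 2.00, near equal in the wild-type JAK2 pair and 3.09-fold apart in the other. The inhibitor Cdkn2a, another known PRC2 target, was raised over WT alone, at least 5.92-fold, since it read -0.17 in JAK2V617F and 0.02 in the double mutant.

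Of 20 p53 targets 6 were raised in the wild-type JAK2 pair (4.07% of all genes) and 4 in the JAK2V617F pair (4.26%), with medians of 0.71 and 0.39. Perp, a desmosome protein induced by p53, was raised in both, with 0.64, 2.44, 0.72 and 2.76 in WT, Ezh2-deleted, JAK2V617F and double mutant LSK (3.49-fold and 4.12-fold). Cdkn1a (p21) was 2.28-fold and 1.48-fold apart. Of the JAK-STAT targets Cish and Id2 were raised in both pairs, of 21 measured (1.49% of all genes). Cish, a feedback inhibitor, read 2.45, 3.54, 3.35 and 4.74, so that the double mutant was highest. Myc read 4.0, 2.52, 3.21 and 2.57, lowered 2.79-fold in the wild-type JAK2 pair and 1.56-fold apart in the other.

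Of 25 NF-kB response genes 11 were raised in the wild-type JAK2 pair (4.07% of all genes) and 3 in the JAK2V617F pair (4.26%), with medians of 0.86 and 0.18, and of 23 immediate early genes 10 and 1, with medians of 0.74 and -0.02. The difference between the pairs was not tested for these lists. Tnfaip3, which ends NF-kB signalling, read 4.13 in WT, 5.98 in Ezh2-deleted, 5.66 in JAK2V617F and 6.01 in the double mutant. WT alone was low. Klf4, an early response factor, read 3.94, 6.23, 5.17 and 4.92, 4.90-fold higher in the wild-type JAK2 pair and 1.19-fold lower in the other. Cd83, an NF-kB target and marker of activated lymphoid and dendritic cells, was raised in both pairs, with 0.48, 3.44, 0.90 and 3.05 (7.78-fold and 4.44-fold).

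**Figure D4:**
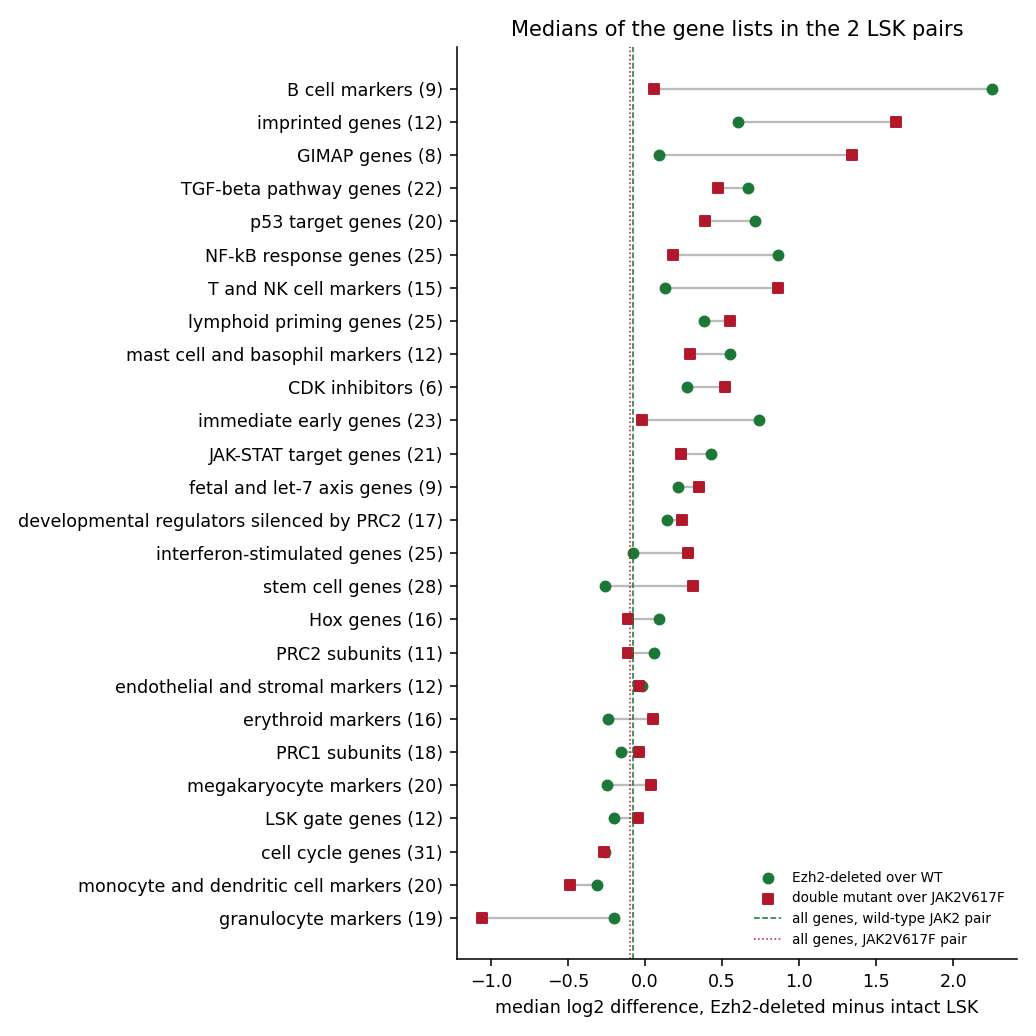
Median log2 difference of each gene list in the wild-type JAK2 pair (green circles) and the JAK2V617F pair (red squares), with the number of genes measured in brackets (each median is over those with a value in that pair, 9 and 5 for B cell markers) and dashed and dotted lines at the medians of all genes (-0.08 and -0.10). B cell markers and GIMAP genes have the widest gaps between the pairs, 2.25 against 0.06 and 0.09 against 1.34, and cell cycle genes lie at -0.26 and -0.27.

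Genes lowered in both pairs had median differences of -1.18 and -1.68, and 23 of the 28 were above background on all 4 arrays. Hk3, a hexokinase of myeloid cells, read 3.49 in WT, 1.72 in Ezh2-deleted, 4.11 in JAK2V617F and 1.83 in the double mutant, 3.40-fold and 4.87-fold lower. The chemokine Ccl9 read 5.44, 4.15, 6.38 and 5.09, lower by 2.44-fold and 2.45-fold. Its WT level lay above the double mutant and below JAK2V617F. The complement protease C1ra (2.52-fold and 3.17-fold), the thyroid hormone deiodinase Dio2 (2.69-fold and 2.57-fold), the aldehyde dehydrogenase Aldh3b1 (2.60-fold and 4.78-fold) and the LIM protein Ajuba (4.85-fold and 2.72-fold) were lowered too. Nrg2 (2.42-fold and 3.25-fold), Aatk (2.40-fold and 2.62-fold) and Mocos (2.32-fold and 3.41-fold) followed, as did Creb3l3 (2.94-fold and at least 3.88-fold) and the lens crystallin Crygc (2.68-fold and at least 4.73-fold). A second Nrg2 probe gave 0.06 in the wild-type JAK2 pair. Tox4, a subunit of a protein phosphatase 1 complex, was 4.58-fold and 4.97-fold lower and was the autosomal gene limma called lower within LSK (log2 -2.25, SE 0.21, adjusted p = 0.0499). A second Tox4 probe gave -0.11 and -0.29, so its probes disagree.

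Of 20 monocyte and dendritic cell markers 3 were lowered in both pairs (0.216% of all genes), 3 in the wild-type JAK2 pair (1.7%) and 6 in the JAK2V617F pair (1.56%), and 0 were raised. The medians were -0.31 and -0.49, and 4 and 8 of the markers lay higher at any size. Ccr2, the chemokine receptor of monocytes, read -1.11, -2.17, 2.29 and 0.19 in WT, Ezh2-deleted, JAK2V617F and double mutant LSK, 2.09-fold and 4.29-fold lower. The transglutaminase subunit F13a1 (2.06-fold and 3.44-fold) and the chemokine Ccl3 (2.13-fold and 3.88-fold) were the others. A second F13a1 probe gave -0.42 in the wild-type JAK2 pair. Csf1r, the macrophage growth factor receptor, read 4.21, 3.51, 5.92 and 4.73, 1.62-fold and 2.28-fold lower, though 1 of its 3 probes gave -0.17 and -0.30.

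Of 19 granulocyte markers 11 were lowered in the JAK2V617F pair (1.56% of all genes) and 0 in the wild-type JAK2 pair (1.7%), where 5 were raised (4.07%), with medians of -1.06 and -0.20. Elane, a protease of primary granules, read 3.83 in WT, 3.64 in Ezh2-deleted, 7.05 in JAK2V617F and 4.70 in the double mutant, 5.10-fold lower in the JAK2V617F pair. Ms4a3, a gene of granulocyte and monocyte progenitors, read 3.50, 3.17, 7.28 and 5.18, 4.27-fold lower. JAK2V617F LSK was highest for both and the double mutant lay between it and WT. S100a8, Camp and S100a9, genes of maturing neutrophils, were 4.18-fold, 3.80-fold and 3.74-fold higher in Ezh2-deleted than in WT LSK and 1.16-fold, 1.16-fold and 1.17-fold apart in the other pair. The summed signal of the list, in units of the 75th percentile, was 1040 in WT, 836 in Ezh2-deleted, 3400 in JAK2V617F and 1410 in the double mutant, with 16 of the 22 on the array above background in WT and 19 on the other arrays. Their part in the other differences of the JAK2V617F pair was not tested.

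The megakaryocyte markers Gp5, Gp1ba, Vwf and Itga2b were lowered in the wild-type JAK2 pair (3.03-fold, 2.69-fold, 2.24-fold and 2.07-fold). That is 4 of 20 measured (1.7% of all genes). These 4 were between 1.49-fold and 1.68-fold lower in the other, and the list medians were -0.25 and 0.04. Of 16 erythroid markers the beta globins Hbb-bt (2.47-fold and 4.14-fold) and Hbb-bs (at least 2.65-fold and 4.79-fold) were raised in both (1.49% of all genes). They are near-identical copies, and their probes may share signal. The erythroid regulator Klf1 was at least 2.56-fold lower in the wild-type JAK2 pair. It was 1 of 3 erythroid markers lowered there (1.7% of all genes), with 0 lowered in the JAK2V617F pair (1.56%). The medians of the erythroid list were -0.24 and 0.05. Of 15 T and NK cell markers Gzma, Gzmb and Klrd1 were raised in both pairs (1.49% of all genes), and 0 were lowered. In the wild-type JAK2 pair 3 were raised (4.07%) and in the JAK2V617F pair 7 (4.26%), with medians of 0.13 and 0.86. Cd3e, which defines T cells, differed by -0.03 and 0.06. Cell cycle genes lay slightly lower, with medians of -0.26 and -0.27, 3 of 31 higher in each pair and 0 past 2-fold. Plk1 was 1.79-fold and 1.42-fold lower.

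Stem cell genes had medians of -0.26 and 0.31, and Hmga2 alone of 28 was raised in both pairs (1.49% of all genes). Robo4, a guidance receptor that anchors stem cells in marrow, read 3.06 in WT, 3.79 in Ezh2-deleted, 0.21 in JAK2V617F and 2.34 in the double mutant, 1.66-fold and 4.39-fold higher. Procr, a stem cell surface receptor, read 2.71, 2.71, 0.71 and 2.05, equal in the wild-type JAK2 pair and 2.54-fold apart in the other. For both, JAK2V617F alone was low. The 8 GIMAP genes are GTPases of lymphocyte survival that lie together on chromosome 6. Of them 5 were raised in the JAK2V617F pair (4.26% of all genes) and 0 in the other (4.07%), with medians of 1.34 and 0.09. Gimap6 read 4.60, 5.19, 3.53 and 4.97, 1.51-fold and 2.73-fold apart.

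The genes seen on 1 background only were often extreme on 1 array, which the choice of genes favours. Of the 359 genes raised on the JAK2V617F background only 272 (75.8%) had their lowest level in JAK2V617F LSK, against 21.3% of all measured genes, and 211 (58.8%) their highest in the double mutant. Of the 175 lowered on that background only 166 (94.9%) were highest in JAK2V617F LSK, against 37.8% of all. Of the 334 genes raised on the wild-type JAK2 background only 195 (58.4%) were lowest in WT and 251 (75.1%) highest in Ezh2-deleted LSK. In the other pair 29.0% of the 334 and 30.6% of the 359 lay between 1.5-fold and 2-fold in the same direction, 38.3% and 47.4% lay within 0.5 log2 of 0, and 21.6% and 7.8% were below background on both arrays. In all, 9 genes passed 2-fold in opposite directions.

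Aoc1, a diamine oxidase, led the genes raised on the wild-type JAK2 background only and was also lowered on the other. It was below background in WT and read -0.53 in Ezh2-deleted, -1.42 in JAK2V617F and -3.06 in the double mutant, at least 11.1-fold higher in the first pair and 3.12-fold lower in the second. Epx, the eosinophil peroxidase, read -3.07, -0.39, -1.50 and -3.35, 6.41-fold higher and 3.60-fold lower. Jchain, which joins secreted antibodies, read -2.38, -0.50, -0.84 and -2.65, 3.68-fold higher and 3.53-fold lower. For all 3 the Ezh2-deleted and JAK2V617F arrays were high and WT and the double mutant low. Gfra2, a receptor of the GDNF family, was above background in Ezh2-deleted LSK alone, at 0.89, at least 29.7-fold over WT, and Fxyd6 was at least 15.9-fold over WT and at least 1.31-fold apart in the other pair.

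Genes raised on the JAK2V617F background only were led by Dnase1, Atp9a, Vwc2, Fgf3 and Lin28b. Lin28b, the fetal inhibitor of let-7 processing, passed background on the double mutant array alone, to -0.44, at least 7.56-fold over JAK2V617F. Vwc2 (at least 9.73-fold) and the matrix protein Npnt (at least 7.08-fold) were above background in the double mutant alone as well. Atp9a, an endosomal flippase, read 1.55, 1.82, -0.41 and 3.20, 1.2-fold and 12.2-fold apart, but a second probe gave -0.11 and 0.08. Fgf3, a growth factor, read -0.75, -2.18, -0.89 and 0.66, 2.69-fold lower in the first pair and 2.93-fold higher in the second. Dnase1 (at least 6.70-fold), Ctxn2 (at least 2.47-fold) and Adgrg7 (4.50-fold) were the others. No gene of this class that entered the fit was called by the interaction. Vwc2 and Npnt, above background on fewer than 2 of 8 arrays, did not enter it.

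Among genes lowered on the wild-type JAK2 background only, the first 5, Cacna2d1, Ido2, Stpg3, Cdk3 and Gys2, were above background in WT LSK and on none of the other 3 LSK arrays, with lower bounds on the log2 scale from -3.41 for Gys2 to -4.25 for Cacna2d1. On the JAK2V617F background only, Urah was above background in JAK2V617F LSK alone (at least 12.8-fold lower in the double mutant), and the ligand Nrg1 was 8.94-fold lower in the double mutant, its JAK2V617F level of 0.25 being far above the other 3. Each of these rests on 1 array.

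**Figure D5:**
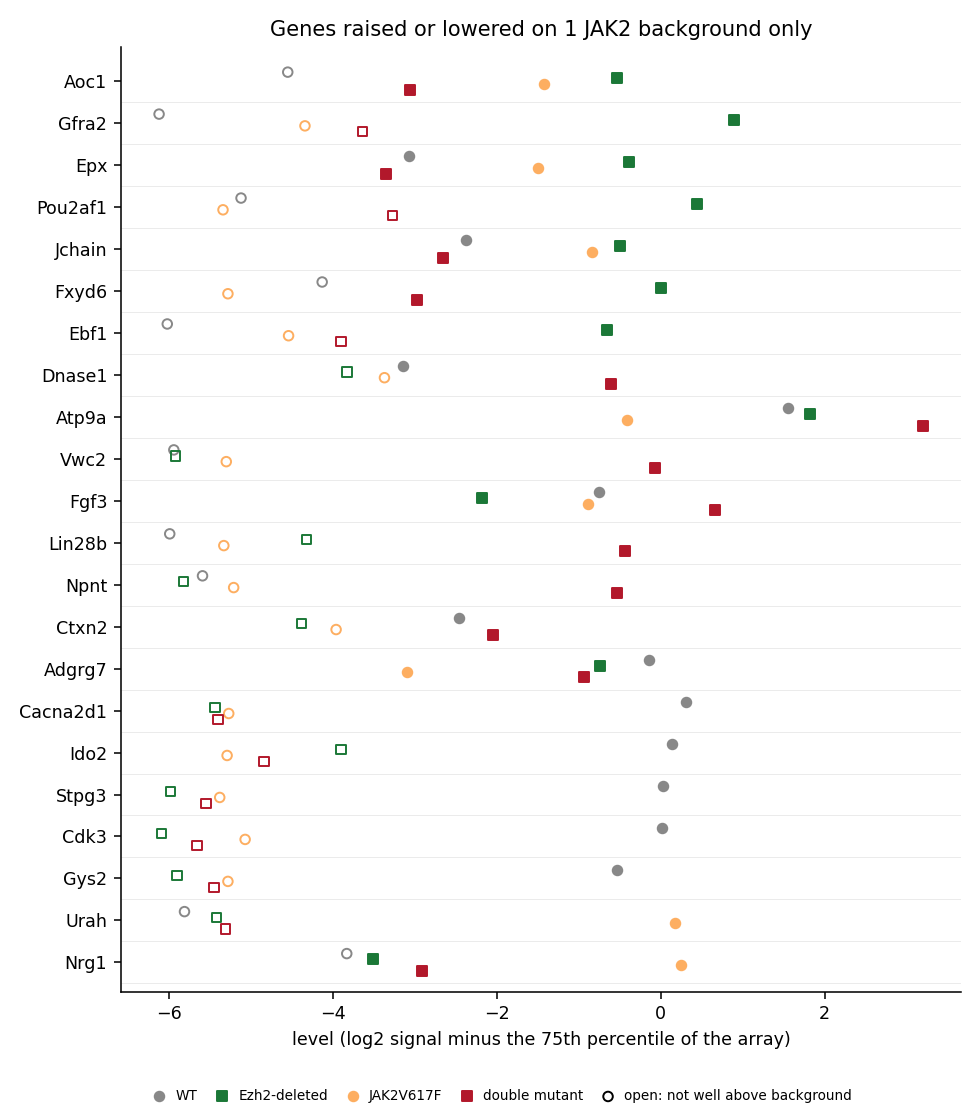
Levels on the 4 LSK arrays of the named genes raised or lowered on 1 JAK2 background only, as log2 signal minus the 75th percentile of the array, with open symbols for values not well above background. Aoc1, Epx and Jchain show Ezh2-deleted and JAK2V617F to the right, and Cacna2d1 to Gys2 show WT alone to the right near 0.

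The limma fit over all 8 arrays, with the Ezh2 effect nested in the cell type and 2 residual degrees of freedom, called 13 of 12730 autosomal genes higher within LSK (0.102%) and 1 lower (0.00786%) at an adjusted p under 0.05. The p-values were adjusted over the 13187 genes tested, and 1172 had an unadjusted p under 0.05. The lowest adjusted p of an autosomal gene, 0.027, belonged to 4 genes, a numbered gene model and Mst1r, a receptor tyrosine kinase (log2 3.30, SE 0.22), Wnt10b and the fatty acid elongase Elovl2 (log2 3.70, SE 0.26). Trh, the precursor of thyrotropin-releasing hormone (log2 3.75, SE 0.29, adjusted p = 0.0357), and Ccr9 (log2 3.26, SE 0.27, adjusted p = 0.0381) came next. Mst1r, Elovl2, Trh and Ccr9 were above background on the deleted arrays alone. The called Pdk4, Rbp4 and Scara3 were so as well, but their lower bounds were under 2-fold in both pairs (at most 1.85-fold). The fit uses dim values as measured, so its log2 exceeds the bound for such genes, and its SE draws on MEP as well as LSK. Without any 1 of the MEP arrays 0 were called. Without 1 LSK array the Ezh2 effect within LSK rests on the 1 pair left, with 1 spread from MEP alone shared by all genes. The calls then follow the size of the difference in that pair, so they are no check of the 14.

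The interaction of Ezh2 deletion with JAK2V617F called 0 genes (0.0%) by limma, with 699 at an unadjusted p under 0.05 and a lowest adjusted p of 0.079. The 0 depends on the processing. With normexp 50 genes were called, 49 with dim values at the floor, 45 among genes above background on all 8 arrays and 61 with a variance trend. It stayed 0 with quantile normalization, the series table, the mean over the probes of a gene and no filter on dim genes. The classes on 1 background only are descriptions with no test.

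The MEP arrays, which the choice of genes did not use, gave the same contrast in another fraction. Whether LSK and MEP of a genotype came from the same mice is not given in the sources used here. Of the 194 genes raised in both LSK pairs 31 (16.0%) were raised in both MEP pairs, against 1.01% of all 12985, and 81 (41.8%) in at least 1, against 5.67%. Higher at any size in both MEP pairs were 145 (74.7%), against 20.3%. Below background on all 4 MEP arrays were 41 (21.1%), against 1390 of all 12985. With dim values as measured, the medians of the 194 in MEP were 0.81 and 1.14, against -0.06 and -0.19 for all genes. Echdc2 (3.48 and 3.36 in MEP), Blnk (3.60 and 2.02), Bmi1 (1.49 and 1.36) and Perp (1.58 and 1.75) were of this kind. Dntt and Vpreb3 were too, and the sex difference holds in MEP as well.

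The other classes had smaller shares in MEP. Of the genes raised on the wild-type JAK2 background only 6 of 334 (1.8%) were raised in both MEP pairs, and of those raised on the JAK2V617F background only 38 of 359 (10.6%). In at least 1 MEP pair 22.2% and 29.8% of these classes were raised, against 5.67% of all genes. These shares do not tell whether the MEP pair had the same JAK2 genotype as the LSK pair. For the 28 genes lowered in both LSK pairs 2 were lowered in both MEP pairs (0.146% of all genes), their MEP medians were 0.07 and -0.07, and 15 were below background on all 4 MEP arrays. Tnfsf11, Il7r, Areg, Asb4 and Camkv were below background on all 4 MEP arrays, so no value can be given there. Ddx4 was raised in LSK alone, with -0.26 and -0.90 in MEP. The limma test of the LSK effect minus the MEP effect called 1 autosomal gene of 12730 (0.00786%), a numbered gene model, with 672 at an unadjusted p under 0.05. The difference between the fractions passed for none of the genes named above that entered the fit. Without any 1 MEP array 0 were called. Without 1 LSK array the LSK effect rests on 1 pair with the spread taken from MEP alone, so those fits are no check of this call.

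Several genes raised in both pairs were neighbours on their chromosome with no other gene of the table between them. There were 8 such pairs, among them Blnk and Dntt on chromosome 19, Igll1 and Vpreb1 on chromosome 16, and Mst1r and Camkv on chromosome 9. Others were Nhsl1 and Hebp2 on chromosome 10 and Pdlim4 and P4ha2 on chromosome 11. The near-identical Hbb-bt and Hbb-bs on chromosome 7, whose probes may share signal, were also among the 8. A count over all measured genes is not given, so the 8 cannot be judged against it. On the X chromosome 10 of 471 measured genes (2.12%) were raised in both pairs.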

How the data were processed

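Gene expression was measured on 8 one-colour Agilent mouse arrays, 1 a group, all on 1 slide and 1 scan, with cell type by row and genotype by column. The deposited scanner tables give an intensity for each spot, already corrected for background by the scanner software (Agilent Feature Extraction 10.7.1.1, per the file headers). A deposited table of the whole series gives a linear ratio, which on its values is the processed signal over about the 75th percentile of the array. It served as an alternative. Spots flagged as non-uniform were dropped, the rest of each probe's spots averaged, and the log2 of the deposited signal taken minus the 75th percentile of all probes on that array. Each gene was represented by its brightest probe on average over 8 arrays. Of 55681 probes 27509 (49.4%) matched a gene through RefSeq accessions (assembly GRCm38.p6, names, chromosomes and promoters alone). The median spread of repeated spots in LSK was a CV of 4.53% to 4.6%, and the number of arrays limits the precision.

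A gene entered the fits when well above background on at least 2 of 8 arrays. limma 3.58.1 in R 4.3.3 was fitted across all such genes with Benjamini-Hochberg adjustment, and was tested on simulated data of 13187 genes. Tables were made in Python 3.11.15 with pandas 2.3.3. With 1 sample a group nothing shows the spread between mice, and p-values measure the spread between pairs. Named were Ezh2, Jak2, sex-linked genes, up to 20 genes raised and 12 lowered in both pairs by the smaller difference, up to 8 raised and 5 lowered on each background only by the difference between pairs, up to 8 called each way, list members at least 2-fold in both pairs and up to 5 others a list. Numbered gene models were counted and not named. Nrarp, Abtb2, Pde3b, the neighbours and list genes cited to show a list's spread were chosen after their values were seen. The members, the 27 gene lists and the tests were chosen with earlier results of these data known. Alternatives were other floors, background correction, normalizations, probe rules, filters, fold and p thresholds and leaving out each array. The octamer, X-linked counts and probes without a gene were added after seeing the data. Values of some named genes are not reported here.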

Additional observations from a re-analysis of the deposited data

Results flagged for a closer look

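Probes matched to no gene lie outside the counts above. Of 28172 such probes 11135 were well above background on at least 1 LSK array, and 84 of them (0.754%) were raised in both pairs and 12 (0.108%) lowered in both. In the wild-type JAK2 pair 503 were raised and in the JAK2V617F pair 287.

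The gene model 6330403K07Rik on chromosome 11, named here after its values were seen, had a different Ezh2 effect in LSK and in MEP by limma (difference of log2 effects 5.57, SE 0.30, Benjamini-Hochberg adjusted p = 0.0345). It was above background on both Ezh2-deleted LSK arrays (-1.79 and -2.01) and not on the intact ones, and in MEP on both intact arrays (-2.34 and -2.54) and not on the deleted ones.

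A group of 9 genes passed 2-fold in opposite directions in the 2 LSK pairs, each with 1 array a group, and the interaction fit called none of them. The difference of the JAK2V617F pair minus the wild-type JAK2 pair was -5.11 for Aoc1, -4.53 for Epx, -3.70 for Jchain, -2.67 for Hspb1, -2.45 for Ltf, -2.35 for Cmya5 and -2.12 for Cd14. It was 2.98 for Fgf3 and 2.79 for Ctxn2. Ctxn2 had the lowest adjusted p of these in the interaction (0.079). These differences within LSK alone were not tested.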

How the results depend on the processing

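No paired analysis was possible because each group has 1 array, so the replicate number, 1 throughout, gives no block. The matched genotype pairs are the comparison itself. Of 226 named pair differences 69 passed 2-fold no longer under normexp and 9 under quantile normalization, 0 under the series table, and none of these changed direction. Of 26 gene lists 4 and 3 moved under normexp and quantile normalization. The normexp setting added an offset of 50 to each signal. The 75th percentile of the deposited signal was 235.5 to 330.2 on the LSK arrays. With normexp on the median spot signal the genes raised in both pairs numbered 62, lowered in both 7, raised on the wild-type JAK2 background only 164, raised on the JAK2V617F background only 124, and lowered on 1 background only 58 and 86. With a 3-fold threshold these 6 counts were 55, 2, 141, 143, 25 and 65, and with 1.5-fold 498, 211, 687, 681, 838 and 576. Genes above background on all 4 LSK arrays gave 112 raised in both pairs and 197 raised on the wild-type JAK2 background only. The 14 genes called by limma for Ezh2 within LSK became 48 with normexp, 0 with quantile normalization, 115 with dim values at the floor, 38 with genes above background on all 8 arrays, 0 with no filter, 29 with a variance trend, 66 at an adjusted p under 0.10 and 0 with LSK arrays alone. Leaving out 1 array gave 0 to 242. Of the 14, 5 were among the calls with normexp and 10 among those at the floor. The interaction gave 50, 49, 45, 61 and 13 with normexp, the floor, all 8 arrays, the trend and an adjusted p under 0.10, against 0, and leaving out an array left no residual degrees of freedom. LSK minus MEP gave 0 with normexp, the floor, all 8 arrays or no filter, 6 with quantile normalization, 11 at an adjusted p under 0.10, and 0 to 128 without 1 array, against 1. The causes were not tested. Signal near background limits the dim genes, for which only bounds are given.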
